A study of Homo sapiens with 6 samples.

Results

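The ENPP genes encode ecto-nucleotide pyrophosphatases and phosphodiesterases, a group of enzymes that act outside the cell or in its membranes. The 6 genes described here, ENPP1 to ENPP6, were found by symbol in the platform annotation. All 6 were measured, each by 1 probe set with 1 symbol, among 14884 named genes. Probe sets that carried several symbols or none were left out. A gene without a probe set of 1 symbol therefore counts as not measured here, though the array may hold it. The cells were MDA-MB-231, a human line established from a triple-negative breast carcinoma. Cells with a knockout (KO) of NR1D1 and control cells gave 3 arrays each, 6 in all. NR1D1 encodes REV-ERBα, a heme-binding nuclear receptor that represses transcription. Both groups had spent 72 h with 200 µM H2O2, so a difference present before the peroxide and one in the response to it cannot be told apart. The labels call the arrays biological replicates but do not say whether they came from separate cultures or knockout clones. The p-values below therefore rest on the spread between arrays, part of which may be technical.

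ENPP enzymes share a catalytic fold that uses bound zinc ions and a threonine to split phosphodiester or pyrophosphate bonds, and they differ in substrate. ENPP1 and ENPP3 release pyrophosphate from extracellular ATP, and ENPP1 also degrades the immune messenger cGAMP. ENPP4 splits diadenosine triphosphate on blood vessel walls, where the product ADP promotes platelet aggregation. ENPP2 is autotaxin, a secreted enzyme that makes the signalling lipid lysophosphatidic acid, and ENPP6 is a choline-specific glycerophosphodiesterase known from oligodendrocytes. In breast carcinoma cells the group is best known for autotaxin, whose product promotes motility, and for ENPP1.

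Stretches of 250 bases before the gene start are shown for ENPP1 and ENPP6, which measured lower in KO cells, and for ENPP3, which lies next to ENPP1 and whose groups overlapped. The sequences are from RefSeq (GRCh38.p14), run 5′ to 3′ on the gene's strand, and have each CG dinucleotide in capitals.
ENPP1, chr6:131807770-131808019, plus strand: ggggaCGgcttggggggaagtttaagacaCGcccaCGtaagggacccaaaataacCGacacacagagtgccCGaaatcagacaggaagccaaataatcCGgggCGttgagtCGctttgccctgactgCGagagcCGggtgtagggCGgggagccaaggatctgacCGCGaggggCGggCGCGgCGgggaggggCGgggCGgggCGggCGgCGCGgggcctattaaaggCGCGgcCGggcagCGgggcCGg
ENPP3, chr6:131637052-131637301, plus strand: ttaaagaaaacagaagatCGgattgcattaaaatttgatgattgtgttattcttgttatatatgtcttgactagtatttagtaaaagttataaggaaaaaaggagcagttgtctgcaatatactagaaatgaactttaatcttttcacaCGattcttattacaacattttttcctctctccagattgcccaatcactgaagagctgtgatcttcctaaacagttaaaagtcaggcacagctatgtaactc
ENPP6, chr4:184217874-184218123, minus strand: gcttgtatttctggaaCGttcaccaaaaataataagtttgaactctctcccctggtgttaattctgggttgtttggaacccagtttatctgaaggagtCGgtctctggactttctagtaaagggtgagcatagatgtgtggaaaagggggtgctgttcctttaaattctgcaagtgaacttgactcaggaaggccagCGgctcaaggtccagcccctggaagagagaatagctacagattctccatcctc

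The neighbours ENPP1 and ENPP3 had unlike windows. ENPP1 had 28 CG dinucleotides and a GC content of 68.8%, against 2 and 32% for ENPP3, while ENPP6 had 3 and 46%. The median of 27305 gene windows of the same length was 11 CG dinucleotides and a GC content of 58%. The hexamer AGGTCA, the half-site that REV-ERBα and many other nuclear receptors bind, was searched on both strands. It was in 0 of the 4 members' windows at hand (ENPP1, ENPP3, ENPP5 and ENPP6) and in 12.1% of all windows. The letters GGGTCA, which cannot match at the same place as AGGTCA on the same strand, were in 0 of these 4 windows and 12.2% of all. The GC box letters GGGCGG occurred 6 times before ENPP1 and 2 times before ENPP5, and 42.3% of all windows held them. These are counts of letters in short windows, and nothing about binding follows from them.

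The 6 genes did not move as a group. ENPP4 measured far higher in KO than in control cells, ENPP1 and ENPP6 measured lower, and ENPP2, ENPP3 and ENPP5 had overlapping groups. All values are log2 probe set values as deposited. A probe set's value depends on its own probes, so levels are compared between groups and not between genes. The genes were chosen by family name, but the family itself was selected on the measured differences of ENPP4 and ENPP1 between KO and control. Differences of members are therefore given with their error as a description and without a p-value.

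Among the nucleotide-cleaving members, ENPP4 read 7.54, 8.002 and 8.03 on the KO arrays, against 5.04, 5.41 and 5.55 on the control arrays. Every KO array lay above every control array, with 1.995 log2 units between the lowest KO and the highest control value. The means were 7.86 ± 0.28 in KO and 5.33 ± 0.26 in control cells (SD, n = 3 each). The difference was 2.53 on the log2 scale, with a standard error (SE) of 0.17 and a 95% interval of 2.14 to 2.91, or 5.77-fold higher in KO. The control values lay near the array medians of 5.18 to 5.22, and without detection calls the floor may compress this fold too. Of all 14884 genes, 2 differed by more in absolute terms. ENPP4 was also among the more variable genes, with a within-group SD of 0.27 that was at or above that of 93.4% of genes (the median gene had 0.12). The replicate numbered 1 was the lowest in both groups. The arrays read bulk RNA, in which more cells with the transcript and more transcript per cell cannot be told apart.

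ENPP1, the pyrophosphate-forming and cGAMP-degrading member, read 9.86, 9.97 and 9.86 on the KO arrays, against 10.63, 10.58 and 10.61 on the control arrays. The groups did not overlap, and 0.62 log2 units separated them. ENPP1 was 0.71 lower in KO on the log2 scale (difference -0.71, SE 0.077, 95% interval -0.89 to -0.54), which is 1.64-fold. Its within-group SD of 0.046 was small, at or above that of 4.68% of genes. In absolute terms 352 genes differed by more than ENPP1.

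ENPP3, which marks basophils and mast cells, read 4.38, 4.04 and 4.10 on the KO arrays, against 4.20, 4.39 and 4.35 on the control arrays. The groups overlapped, with the highest KO value just under the highest control value. The difference was -0.14 on the log2 scale, with a 95% interval of -0.39 to 0.11. ENPP5 read 4.92, 4.71 and 4.80 on the KO arrays, against 4.95, 4.85 and 4.404 on the control arrays. All 3 KO values lay within the control range, and the difference was 0.075 with an interval of -0.25 to 0.40.

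Of the lipid-cleaving members, ENPP2 read 4.77, 5.00 and 5.12 on the KO arrays, against 5.07, 4.83 and 4.98 on the control arrays. The groups overlapped and their means were nearly equal, at 4.97 ± 0.18 in KO and 4.96 ± 0.12 in control cells (SD, n = 3 each). The 95% interval of the difference, -0.26 to 0.26, leaves room for a change of that size in either direction. ENPP6 read 4.13, 4.32 and 4.44 on the KO arrays, against 4.75, 4.82 and 4.71 on the control arrays. These groups did not overlap but lay 0.27 apart, and the difference was -0.46 on the log2 scale (SE 0.097, 95% interval -0.68 to -0.24), or 1.38-fold lower in KO.

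**Figure D1:**
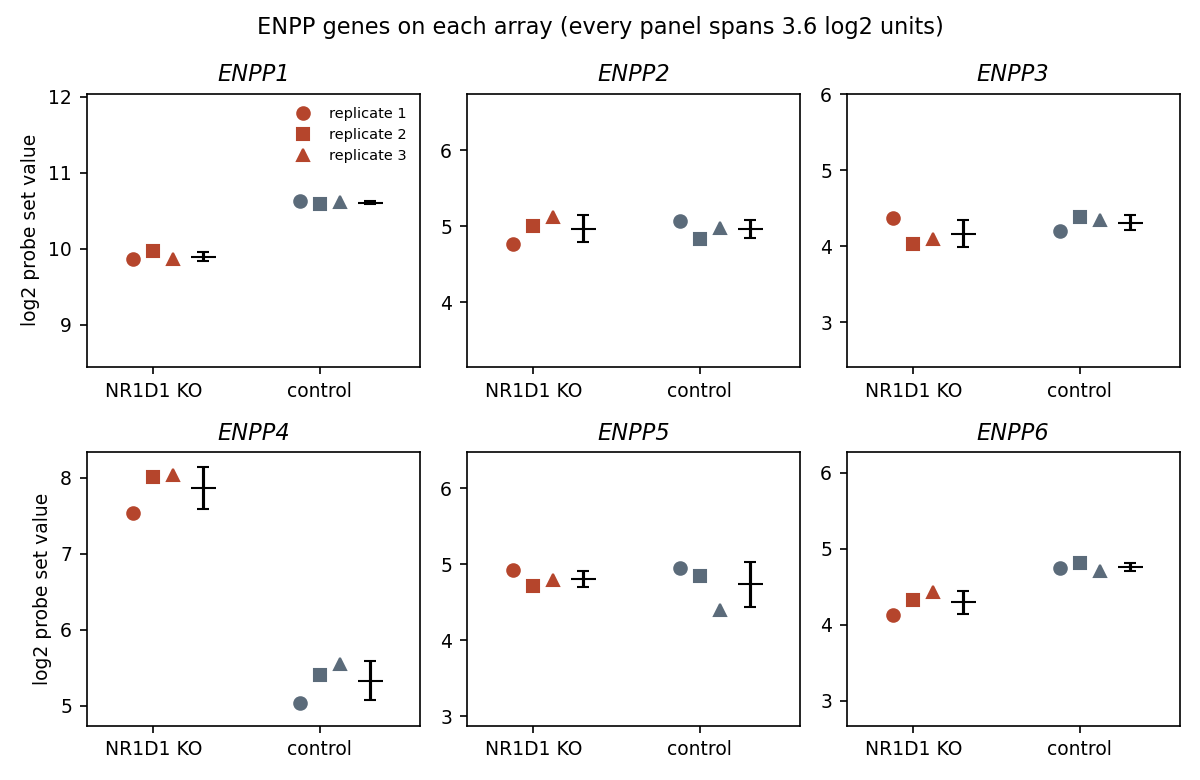
Log2 probe set value (vertical axis) of each ENPP gene on the 3 NR1D1 KO arrays (left in each panel) and the 3 control arrays (right), with the mean and SD as bars. The groups are apart for ENPP4, with KO higher, and for ENPP1 and ENPP6, with KO lower, and overlap for ENPP2, ENPP3 and ENPP5.

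ENPP3, ENPP5 and ENPP6 were dim, with a mean over the 6 arrays below 4.91, the mark under which 25% of genes lay. ENPP2, with a mean of 4.96, lay just above this mark. No detection calls were at hand, so whether these probe sets read transcript or background was not determined, and a dim gene can have its fold compressed toward the floor of the array. The lower value of ENPP6 is open to this limit, and that of ENPP1 is not, since ENPP1 read 9.86 or more on every array. In the limma fit over all genes, 1 member passed an adjusted p of 0.05 as higher (ENPP4) and 2 as lower (ENPP1 and ENPP6). Of all genes, 9.49% passed, with 4.74% higher and 4.74% lower. The groups did not overlap for 3 of 6 members and for 28.7% of all genes. The contrast was known when the genes were chosen, so nothing is read from these shares. Without KO replicate 1, KO replicate 2 or any 1 control replicate, 2 members passed, ENPP1 and ENPP4.

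**Figure D2:**
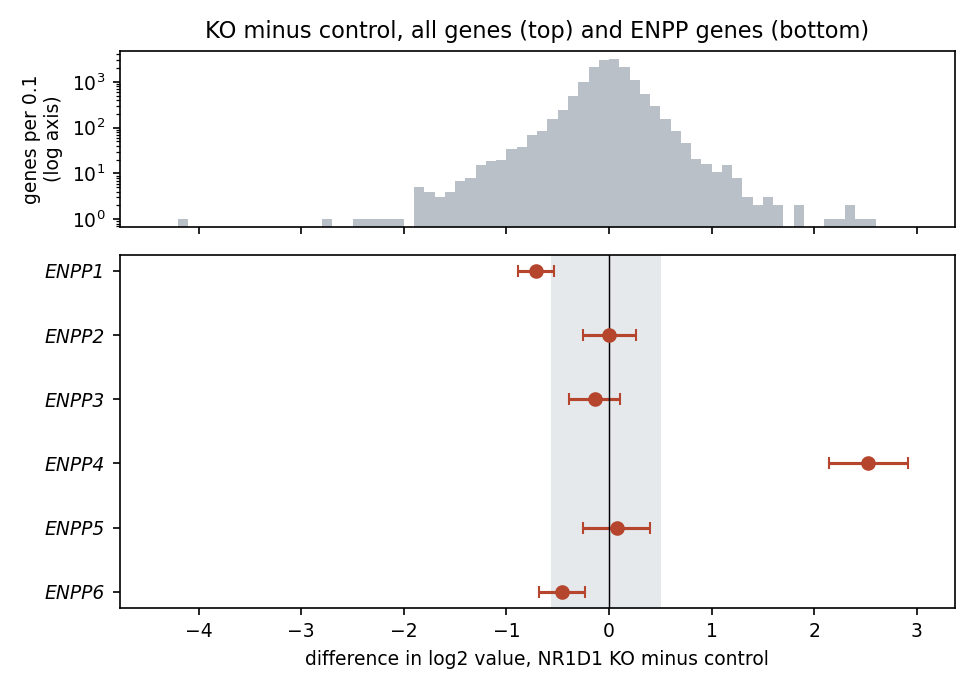
Difference in log2 value, NR1D1 KO minus control (horizontal axis), for all 14884 genes as a histogram with a log count axis (top) and for each ENPP gene with its 95% interval (bottom). The grey band spans the central 95% of all genes, -0.56 to 0.50. ENPP4 at 2.53 and ENPP1 at -0.71 lie outside the band, and the other 4 genes lie inside it.

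ENPP4 and ENPP5 are next to each other on chromosome 6, and so are ENPP3 and ENPP1 at another place on it. In each pair the groups were apart for 1 gene and overlapped for the other. Of the 10 measured genes around ENPP4 and ENPP5, 1 fell and none rose in the limma fit, where 2 had an unadjusted p under 0.05. The share of all genes with such a p was not counted, but it is no less than the 9.49% that passed. The median difference of the 10 genes was 0.14, against 0.0039 for all genes. The gene that fell was ADGRF5, which encodes an adhesion G protein-coupled receptor. It read 9.57, 9.66 and 9.61 in KO, against 10.55, 10.47 and 10.59 in control cells, and was 1.89-fold lower (limma, adjusted p = 0.000319). RUNX2, the bone transcription factor gene on the other side of ENPP4, differed by 0.18 (limma, adjusted p = 0.37), and RCAN2, a calcineurin regulator gene beyond ENPP5, by 0.34 (limma, adjusted p = 0.0709).

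Of the 10 measured genes around ENPP3 and ENPP1, 1 rose and 0 fell. It was CCN2, next to ENPP1 on the side away from ENPP3, which encodes connective tissue growth factor. CCN2 read 10.00, 10.26 and 10.20 in KO, against 9.57, 9.49 and 9.41 in control cells, so it went the opposite way from ENPP1, by 1.58-fold (limma, adjusted p = 0.0045). MED23, a Mediator subunit gene on the other side of the pair, differed by 0.029 (limma, adjusted p = 0.896).

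Around all members together, 8 of 40 neighbours passed, 3 higher and 5 lower, where 9.49% of all genes passed. No test was run on the neighbour counts. ENPP2, on chromosome 8, had 2 of 10 neighbours higher and 2 lower while its own groups overlapped. The growth regulator gene CCN3, directly beside it, read 7.04, 7.09 and 6.85 in KO, against 5.80, 5.79 and 5.58 in control cells, and was 2.41-fold higher (limma, adjusted p = 0.000238). HAS2, which encodes a hyaluronan synthase, was 1.35-fold higher (limma, adjusted p = 0.0397), SAMD12 1.53-fold lower and EXT1, of heparan sulfate synthesis, 1.35-fold lower. HAS2 missed the threshold when any 1 array other than KO replicate 1 was left out (limma, adjusted p of 0.0818 to 0.127). EXT1 missed it without KO replicate 2 (limma, 0.0506) or control replicate 1 (0.0532) or 3 (0.0575). Around ENPP6, on chromosome 4, 2 of 10 genes fell. These were ACSL1, which encodes a long-chain acyl-CoA synthetase (2.37-fold lower), and TRAPPC11, of vesicle transport (1.29-fold lower, limma, adjusted p = 0.0262). TRAPPC11 missed the threshold when any 1 array other than KO replicate 2 was left out (limma, adjusted p of 0.0624 to 0.0961) and with the replicate number as a block (0.0623).

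**Figure D3:**
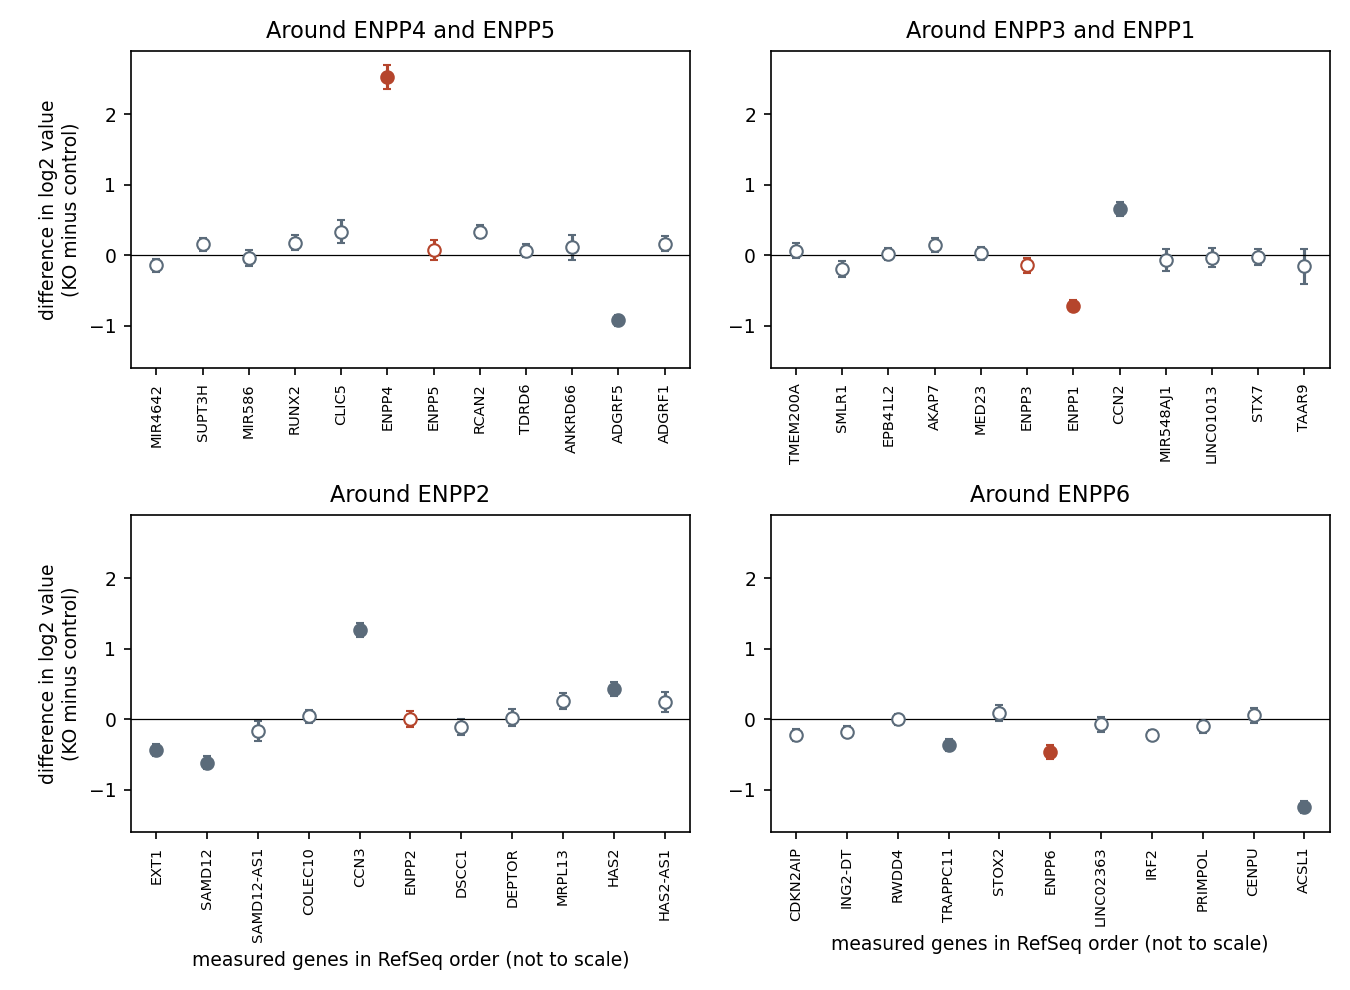
Difference in log2 value, NR1D1 KO minus control (vertical axis, bars are SE), for the ENPP genes (red) and 5 measured genes on each side in RefSeq order, with filled points for an adjusted p under 0.05. ENPP4 stands at 2.53 beside neighbours between -0.92 and 0.34, and ENPP1 at -0.71 lies between ENPP3 at -0.14 and CCN2 at 0.66.

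The genes whose profile over the 6 arrays was nearest to that of ENPP4 were MBOAT1, a lysophospholipid acyltransferase gene, CACHD1, NEO1, which encodes neogenin, and ACSS3, a mitochondrial acyl-CoA synthetase gene. Likeness was the root mean square difference of log2 values after each gene's own mean was taken off. It was 0.26 for MBOAT1, 0.28 for CACHD1, 0.29 for NEO1 and 0.37 for ACSS3, near the within-group SD of ENPP4 itself. Nearest to ENPP1 were CASK, a scaffold kinase gene (0.023), GPSM2, of spindle orientation (0.032), HIVEP2, a zinc finger transcription factor gene (0.039), RBM47, an RNA-binding protein gene (0.044), and WDR47 (0.045). With 3 arrays a group, such likeness mostly reflects a difference of the same size between KO and control.

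Genes that supply, receive or remove what the ENPP enzymes act on were taken from 7 lists with 145 genes. Of these, 77 were measured, that is, had a probe set with 1 symbol. Of these 77, 4 rose and 6 fell (limma, adjusted p under 0.05), or 13%, against 9.49% of all genes. The median difference was -0.037 on the log2 scale, against 0.0039 for all genes. No list had more than 3 called genes.

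Of 25 genes that break down extracellular nucleotides or handle adenosine, 14 were measured. NT5E and the alkaline phosphatase and SLC29 transporter genes were not examined. Of the 14, 0 rose and 1 fell, with a median of -0.074. This was ENTPD3, an ecto-ATPase gene, at 5.15, 5.03 and 4.99 in KO, against 5.56, 5.33 and 5.36 in control cells (difference -0.36, limma, adjusted p = 0.0487). It missed the threshold without any 1 of the 6 arrays (limma, adjusted p of 0.0603 to 0.152) and with the replicate block (0.0582). Of 23 genes for nucleotide or adenosine receptors and ATP release, 6 were measured. These were pannexin and adenosine receptor genes only, and the nucleotide receptor genes (P2RX and P2RY) were not examined. Of the 6, 0 rose and 2 fell. PANX1, which encodes the ATP release channel pannexin 1, averaged 8.63 ± 0.096 in KO and 9.05 ± 0.044 in control cells (SD, n = 3 each, difference -0.42, limma, adjusted p = 0.0176). ADORA2A, the gene of an adenosine receptor, was lower by a similar amount (difference -0.40, limma, adjusted p = 0.0325). Its relative ADORA2B, named after its values were seen, was 0.31 above control on the log2 scale and just missed the threshold (limma, adjusted p = 0.0508). PANX1 missed the threshold without KO replicate 2 (0.066) or 3 (0.0552), control replicate 2 (0.0599) or 3 (0.0745), or with the replicate block (0.0503). ADORA2A missed it without KO replicate 1 (0.074) or 2 (0.107) or control replicate 1 (0.113) or 3 (0.115).

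The genes of lysophosphatidic acid receptors and turnover moved in both directions. Of 14 measured, 2 rose and 1 fell, with a median difference of 0.067. PLPP1, a lipid phosphate phosphatase gene whose product degrades lysophosphatidic acid, read 7.46, 7.76 and 7.55 in KO, against 8.06, 8.48 and 8.03 in control cells, and was 1.52-fold lower (limma, adjusted p = 0.0315). Its relative PLPP4 was 1.33-fold higher (limma, adjusted p = 0.0251) and LPCAT1, a lysophospholipid acyltransferase gene, 1.41-fold higher (limma, adjusted p = 0.017). Each of these 3 calls was lost when some arrays were left out. PLPP1 missed without KO replicate 1 (0.0971) or 3 (0.0878) or control replicate 1 (0.0557) or 2 (0.0649). PLPP4 missed without KO replicate 2 (0.062) or 3 (0.0686), control replicate 1 (0.0863) or 3 (0.0962), or with the replicate block (0.059). LPCAT1 missed without KO replicate 2 (0.0638) or 3 (0.0529) or control replicate 1 (0.0521).

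Of 28 genes of choline phospholipid and sphingomyelin hydrolysis, 10 were measured. No sphingomyelinase gene was among them, so sphingomyelin hydrolysis was not examined. Of the 10, 0 rose and 1 fell, with a median of -0.14, against 0.0039 for all genes. The 1 was GPCPD1, which encodes an intracellular glycerophosphocholine phosphodiesterase, an enzyme for the same kind of substrate as ENPP6. GPCPD1 read 6.75, 6.67 and 6.93 in KO, against 7.50, 7.66 and 7.54 in control cells. All KO values lay below all control values, by 1.72-fold in the means (limma, adjusted p = 0.00203), and the call held without any 1 array. Of 8 measured genes of pyrophosphate and mineralization, 0 rose and 1 fell. SPP1, the osteopontin gene, read 3.34, 3.65 and 3.17 in KO, against 4.30, 4.27 and 3.97 in control cells (1.73-fold lower, limma, adjusted p = 0.0115), all dim values. ANKH, ABCC6 and ALPL, which set extracellular pyrophosphate together with ENPP1, had no probe set with 1 symbol and were not examined.

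Only 4 of 16 genes of cGAMP sensing and transport had a probe set with 1 symbol, and the others were not examined. The 4 were CGAS, STING1, TBK1 and IRF3, so no transporter gene was among them. By limma 0 passed, where 2 had an unadjusted p under 0.05. The share of all genes with such a p was not counted, but it is no less than the 9.49% that passed. STING1, the cGAMP receptor gene, averaged 6.58 ± 0.079 in KO and 6.89 ± 0.083 in control cells (SD, n = 3 each, difference -0.31, limma, adjusted p = 0.0616). TBK1, the kinase gene below it, differed by -0.34 (limma, adjusted p = 0.132). Both had groups that did not overlap, as had 28.7% of all genes. Of 21 measured NUDT genes and FHIT, whose products include intracellular hydrolases of diadenosine phosphates, 2 rose and 0 fell, with a median of 0.093. NUDT21, which despite its name is a subunit gene of mRNA 3′ end processing, was 1.38-fold higher (limma, adjusted p = 0.00635), and NUDT3, a diphosphoinositol phosphatase gene, 1.32-fold higher (limma, adjusted p = 0.0226). NUDT3 missed the threshold when any 1 array other than KO replicate 3 was left out (limma, adjusted p of 0.0558 to 0.0791).

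**Figure D4:**
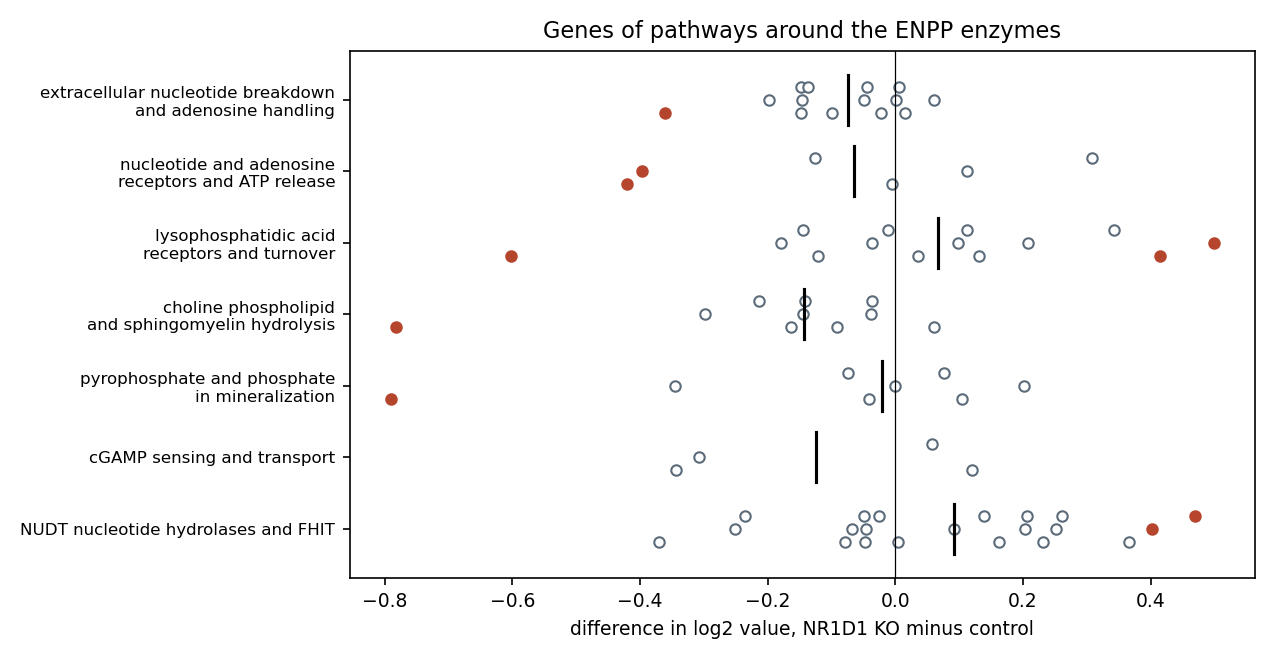
Difference in log2 value, NR1D1 KO minus control (horizontal axis), of each measured gene in 7 lists around the ENPP enzymes. Filled points passed an adjusted p of 0.05 and black bars are list medians, which lie between -0.14 and 0.093. Called genes lie on both sides of 0.

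No probe set with 1 symbol carried the name NR1D1. Those with several symbols were not searched, so the knockout was not checked from its transcript. The marker levels do not settle the identity of the line, since there were no detection calls and probe sets are not comparable in level. The mesenchymal genes VIM and AXL read at least 8.97 and 11.74 on every array. Of the luminal genes, KRT18 read at least 9.15, KRT19 at least 8.04, EPCAM at least 7.11 and GATA3 at least 6.72, while ESR1 and PGR read at most 5.43 and 4.07. Markers of several kinds differed between the groups. Of 8 measured luminal markers 3 rose (EPCAM, KRT18 and KRT19) and 1 fell (GATA3), and their mean level was 6.67 to 6.74 in KO and 6.59 to 6.64 in control arrays. Of 6 mesenchymal markers 2 rose and 1 fell, with mean levels of 10.33 to 10.38 in KO and 10.18 to 10.20 in control arrays. Of 3 leukocyte markers, 1 fell (CD68, a lysosomal protein gene), with mean levels of 6.33 to 6.58 in KO and 6.59 to 6.72 in control arrays. Of 2 oligodendrocyte, 3 basophil and mast cell and 2 fibroblast markers, 0 passed by limma and 0 had an unadjusted p under 0.05. The part of these markers in the ENPP differences was not tested.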

How the data were processed

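The authors deposited 1 log2 value per probe set and array, between 1.16 and 13.75. Normalization between arrays was inferred from the near-equal array medians. The scale was read from the deposited values, and an error in it would change every fold. How probes were scanned, corrected and summarized is not stated in the labels. Amplification and biotin labelling used GeneChip whole-transcript kits, per the labels' protocols. Of 53617 probe sets, 16098 had 1 symbol in the platform annotation, and 0 symbols needed updating through RefSeq. The other probe sets, with no symbol or several, were left out. The probe set with the highest mean stood for a gene. Groups came from the labels. The two-sided comparison of KO with control used lmFit and eBayes of limma 3.58.1 (R 4.3.3) over all 14884 genes, with Benjamini-Hochberg adjustment and a threshold of 0.05. The number of arrays limits the precision, with a median SE of 0.10. The fit was also run on simulated arrays drawn independently, which cannot address spread shared through a culture, clone or batch. Members and lists were chosen with earlier results of these data known. Named besides the members are up to 4 called genes of a list, or else the 2 with the smallest p, called neighbours, other neighbours picked after their values were seen (RUNX2, RCAN2 and MED23), and the 5 genes nearest in profile, of which 1 near ENPP4 is not reported here. Alternatives were renormalization, median centring, averaged probe sets, dim gene filters, another prior, array weights, a replicate block and leaving out each array. Same-numbered arrays had residual correlations of 0.0547, 0.0681 and -0.106, so the numbers were not taken as pairs. Plots used matplotlib 3.10.9 (Python 3.11.15).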

Additional observations from a re-analysis of the deposited data

How the results depend on the processing

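The block, the other prior and the dim gene filters cannot move a difference between groups, and leaving out 1 of 3 arrays moves it by less than 1 within-group SD by construction. ENPP4 stayed between 2.38 and 2.69 and ENPP1 between -0.75 and -0.69 when 1 array was left out. ENPP2 (-0.075 to 0.10) and ENPP5 (-0.089 to 0.18) took either sign there, and ENPP3 ran from -0.25 to -0.075 and ENPP6 from -0.53 to -0.38. ENPP3, ENPP5 and ENPP6 have no value without the dimmest 25% of genes, nor has ENPP2 without the dimmest 50%. Leaving out 1 array gave 336 to 518 genes higher and 387 to 531 lower, against 706 each. The counts were 1044 and 909 with a trend and robust prior, 1031 and 856 without the dimmest 50%, 917 and 854 without the dimmest 25% and 498 and 552 with the replicate block. Leaving out 1 array gave 2 to 3 called ENPP genes. It also gave 0 calls for nucleotide breakdown, 0 to 1 for receptors and ATP release, 0 to 2 for lysophosphatidic acid and 1 to 3 for NUDT genes. The nucleotide breakdown call was lost (0) without the dimmest 50%, with a trend and robust prior and with the replicate block, and the block left 1 receptor call. The receptor list had 3 calls without the dimmest 25% or 50%, with that prior and with array weights. The cGAMP list had 1 call without the dimmest 25%, 2 without the dimmest 50% and 1 with the trend and robust prior. The NUDT list had 5, 4 and 4 calls under these settings, and the mineralization list had 2 with that prior. With fewer arrays or fewer genes tested the adjustment itself changes, and the cause of the prior's effect was not tested. The equal replicate numbers of the titles are not backed by residual correlations. With the replicate block the same 3 ENPP genes passed, and nothing is read from this, since the family was selected on this contrast.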
